A study of Mus musculus with 34 samples.

Results

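The genes described here are 7 genes of cholesterol synthesis and its control, *Hmgcs1*, *Idi1*, *Fdft1*, *Sqle*, *Cyp51*, *Srebf2* and *Insig1*, taken by name from the 23509 genes counted in mouse kidney. All 7 were counted in all 34 mice and all 7 passed the filter on low counts, which kept 15644 genes. The choice used no measured value, although the genes were listed with earlier results of these data known.

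Kidneys of C57BL6 mice were harvested on postnatal day 28 (P28) and polyadenylated RNA was sequenced. UNT mice (n = 12) were untreated, non-transgenic and age-matched. PBS mice (n = 11) were *Pkd2*-KO mice dosed subcutaneously with PBS on P10, P11, P12 and P19, and RGLS4326 mice (n = 11) were *Pkd2*-KO mice given 20 mg per kg of RGLS4326 on the same days. RGLS4326 is a short, chemically modified oligonucleotide that blocks the microRNA miR-17 by pairing with its seed. In *Pkd2*-KO mice, a Cre recombinase under the *Pkhd1* promoter deletes floxed *Pkd2* alleles in kidney tubules, so other cells of the kidney keep the gene. The labels write the genotype as "Pdk2KO". The published account of the sequencing lists fewer PBS mice than the labels do, and all mice labelled PBS were used, so which of them that account covers is not known here. UNT mice lack both the Cre deletion and the PBS injections, so these cannot be told apart in a comparison with UNT.

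Cholesterol is built from acetyl-CoA by way of mevalonate, isoprenoid units, squalene and lanosterol. The transcription factor SREBP-2, encoded by *Srebf2*, turns on most genes of this route when sterols in the endoplasmic reticulum run low. INSIG-1, the product of *Insig1*, holds SREBP-2 and its escort SCAP in the endoplasmic reticulum when sterols are plentiful, and *Insig1* is itself an SREBP target. In the kidney, proximal tubule cells take up filtered proteins and lipids and are metabolically very active.

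Sequences are shown for the microRNA that the drug blocks and for promoters with the motif through which SREBP-2 acts, because these are the regulatory letters that bear on the 7 genes. Mature miR-17-5p (chr14:115043684-115043706, plus strand, RefSeq sequence on GRCm38.p6) is given 5′ to 3′ with its seed, bases 2 to 8, in capitals.
mmu-miR-17-5p: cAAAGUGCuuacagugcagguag
The same seed was carried by 7 mouse miRNA names in that table, including miR-20a-5p, miR-93-5p and miR-106b-5p. A match to this seed of at least 7 bases (7mer-m8, 7mer-A1 or 8mer) was found in the longest annotated 3′UTR of 0 of the 7 genes, whereas 21.2% of the 14193 tested genes with an annotated 3′UTR held one. Those 3′UTRs ranged from 275 bases for *Sqle* to 1980 bases for *Cyp51*. *Pkd2* held an 8mer, shown on the transcript strand with the matching letters in capitals.
Pkd2 (chr5:104503810-104503839, plus strand, GRCm38): tataattttctGCACTTTAatttattttac
A match describes letters only, and its absence from the longest 3′UTR says nothing of other transcripts.

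RefSeq promoters (GRCm38.p6, 250 bases before to 50 after the start of the gene) were at hand for 5 of the 7 genes, *Hmgcs1*, *Idi1*, *Cyp51*, *Srebf2* and *Insig1*. The sterol regulatory letters TCACNCCA, searched on both strands, were present in *Hmgcs1*, 137 bases before the start, and in *Srebf2*, 162 bases before it, that is in 2 of 5, against 4.36% of all 32851 promoters in the table. The letters CCAAT, bound by the SREBP partner NF-Y, were present in 5 of 5 (37.4% of all promoters), GGGCGG, an Sp1 motif, in 5 of 5 (35.7%), and CACGTG in *Insig1* alone, 1 of 5 (7.15%). Both promoters with the sterol letters are shown, with the sterol motif and every CCAAT or its complement ATTGG in capitals.
Hmgcs1 (chr13:119690101-119690400, plus strand): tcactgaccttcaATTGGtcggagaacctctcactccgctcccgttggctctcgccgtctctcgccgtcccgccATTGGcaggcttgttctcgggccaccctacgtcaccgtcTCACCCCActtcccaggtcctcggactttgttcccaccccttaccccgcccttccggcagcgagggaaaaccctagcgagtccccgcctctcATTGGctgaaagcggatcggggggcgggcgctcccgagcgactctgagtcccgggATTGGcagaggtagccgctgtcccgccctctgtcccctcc
Srebf2 (chr15:82147019-82147318, plus strand): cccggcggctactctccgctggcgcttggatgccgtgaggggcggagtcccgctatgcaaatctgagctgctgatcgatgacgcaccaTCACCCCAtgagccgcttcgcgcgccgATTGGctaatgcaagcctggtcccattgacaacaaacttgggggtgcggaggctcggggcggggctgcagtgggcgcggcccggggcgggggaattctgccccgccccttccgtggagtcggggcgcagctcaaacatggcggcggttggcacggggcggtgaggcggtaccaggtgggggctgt
Of these genes, *Hmgcs1* was lower and *Srebf2* higher in cystic than in UNT kidney.

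Levels are given as CPM (counts relative to library size, scaled by TMM factors) and differences as log2 fold changes from the edgeR quasi-likelihood test, with Benjamini-Hochberg adjustment over all 15644 genes and a call at an adjusted p under 0.05. Each library held between 17603122 and 54981992 reads in genes, and counts of the 7 genes from 59 for *Idi1* to 43229 for *Hmgcs1* in single libraries, so that counting error was small beside the spread between mice. *Pkd2* was at 220 to 338 CPM in UNT, 98.0 to 215 CPM in PBS and 170 to 237 CPM in RGLS4326 mice, and every PBS mouse was below every UNT mouse. Reads in no gene took 9.84% to 11.3% of the reads in UNT, 5.18% to 8.995% in PBS and 4.94% to 12.0% in RGLS4326 libraries, so PBS and UNT did not overlap in this percentage of unassigned reads. Reads aligned to more than 1 place took 22.8% to 25.7% in UNT, 14.8% to 19.4% in PBS and 14.8% to 19.1% in RGLS4326 libraries, so UNT overlapped neither of the other groups, and the part of this in the comparisons with UNT was not tested. The file names number the libraries in 3 sets, each with 3 or 4 mice of every group, which are called numbering sets here.

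**Figure D1:**
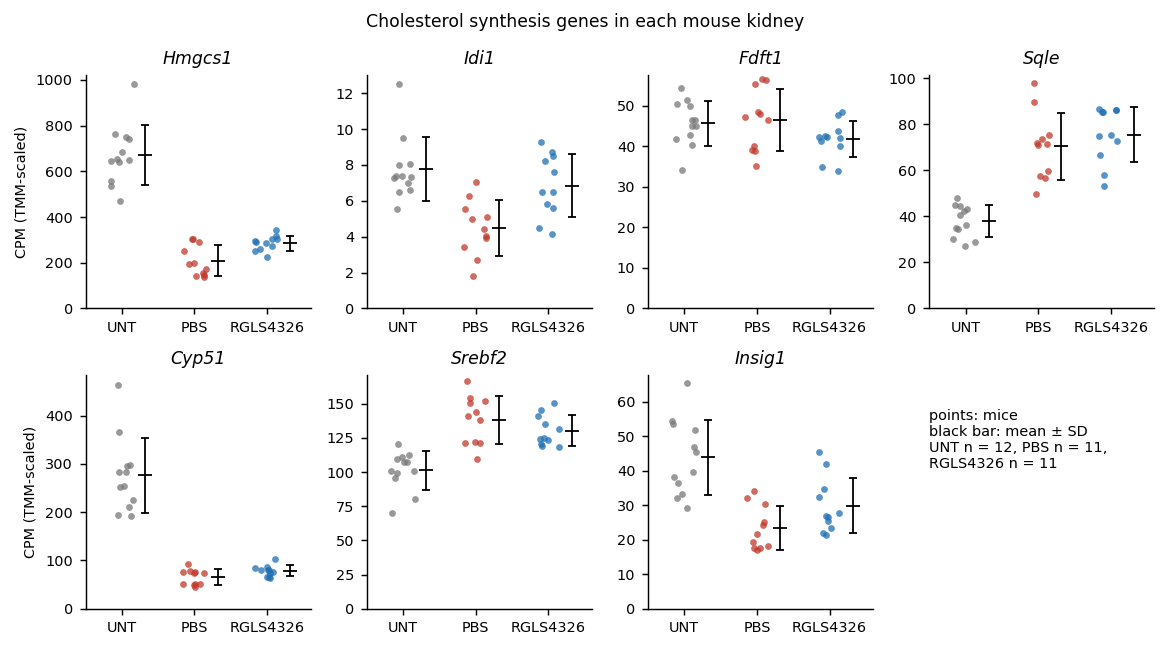
CPM of each of the 7 genes (linear axes from 0) in each mouse, by group. Points are mice and black bars the mean ± SD (UNT n = 12, PBS n = 11, RGLS4326 n = 11). PBS and RGLS4326 mice lie below all UNT mice for Hmgcs1 and Cyp51 and above all UNT mice for Sqle, while the 3 groups overlap for Fdft1.

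In PBS-treated *Pkd2*-KO kidneys, compared with UNT to ask what differs in cystic kidney, 4 of the 7 genes were lower (*Cyp51*, *Hmgcs1*, *Insig1*, *Idi1*), 2 were higher (*Sqle*, *Srebf2*) and *Fdft1* was not called. *Cyp51* fell to 0.238 times and *Hmgcs1* to 0.310 times the UNT level, whereas *Sqle* rose 1.85-fold. Of all genes tested, 82.1% were called in this comparison, 43.1% higher and 39% lower, so 6 of 7 called is a share near the background. The median log2 fold change of the 7 genes was -0.80, beside 0.04 over all tested genes. The groups did not overlap for 3 of the 7 genes, *Hmgcs1*, *Cyp51* and *Sqle*, as was so for 42.5% of all genes.

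*Hmgcs1* encodes the cytosolic HMG-CoA synthase, which acts early in the mevalonate part of the route. It ranged from 471 through a median of 651 to 981 CPM in UNT, from 137 through 193 to 305 CPM in PBS and from 225 through 292 to 342 CPM in RGLS4326 mice. All 11 PBS mice were below the lowest UNT mouse (log2 fold change -1.69, SE 0.13, adjusted p = 6.1e-14). *Idi1*, the isomerase that makes the allylic isoprenoid unit, was the gene at the lowest level. It ranged from 5.56 through 7.35 to 12.5 CPM in UNT and from 1.79 through 4.43 to 7.05 CPM in PBS mice, and 9 of 11 PBS mice were below all UNT mice. Its log2 fold change was -0.80 (SE 0.17, adjusted p = 5.3e-05).

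*Fdft1*, squalene synthase, commits the isoprenoid flow to sterols. It ranged from 34.2 through 45.8 to 54.4 CPM in UNT and from 35.2 through 47.2 to 56.6 CPM in PBS mice, which overlapped almost entirely (log2 fold change 0.02, SE 0.08, adjusted p = 0.78). The next enzyme, *Sqle* (squalene epoxidase, a second control point of the route), was at 27.3 through 38.6 to 48.2 CPM in UNT and at 49.7 through 71.4 to 98.1 CPM in PBS mice. All 11 PBS mice were above the highest UNT mouse, with log2 fold change 0.89 (SE 0.11, adjusted p = 2.6e-09). *Cyp51*, the lanosterol demethylase, ranged from 192 through 268 to 464 CPM in UNT and from 46.0 through 74.0 to 93.4 CPM in PBS mice. All 11 PBS mice were below the lowest UNT mouse, and its log2 fold change of -2.07 (SE 0.14, adjusted p = 3.6e-16) was the largest among the 7 genes.

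Of both control genes, *Srebf2* ranged from 70.3 through 104 to 121 CPM in UNT and from 109 through 141 to 166 CPM in PBS mice. It was higher in PBS (log2 fold change 0.45, SE 0.07, adjusted p = 1.2e-06), with 10 of 11 PBS mice above all UNT mice. *Insig1* ranged from 29.1 through 42.5 to 65.4 CPM in UNT and from 17.1 through 21.6 to 34.2 CPM in PBS mice. It was lower (log2 fold change -0.91, SE 0.15, adjusted p = 8.3e-07), with 8 of 11 PBS mice below all UNT mice.

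With libraries scaled by total counts only, the median of all genes moved from 0.04 to 0.33 (log2), the calls over all genes moved from 6746 higher and 6095 lower to 8970 higher and 4099 lower, and *Fdft1* was called higher (0.31, adjusted p = 0.00083), while the other 6 genes kept their call and direction. The call of *Idi1* was lost with the percentage of unassigned reads as a covariate (log2 fold change -0.45, adjusted p = 0.088) and within numbering set 1 alone (-0.43, adjusted p = 0.084), and in numbering set 2 alone *Fdft1* was called lower (-0.29, adjusted p = 0.026).

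**Figure D2:**
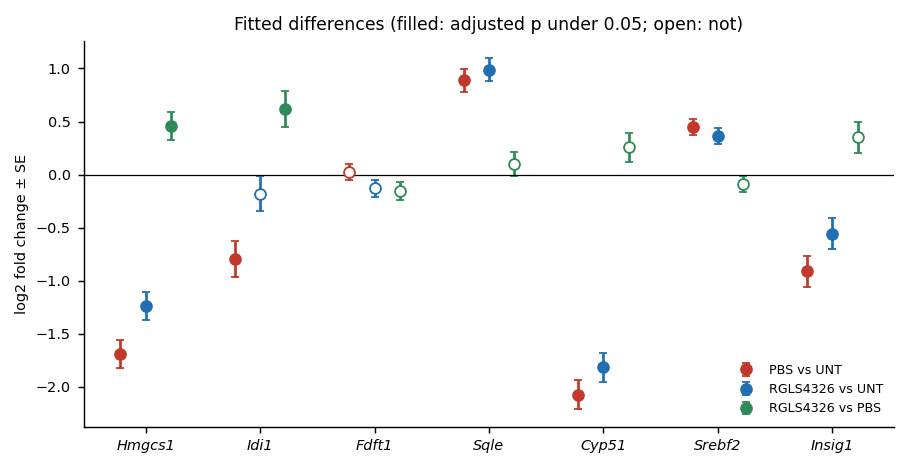
Log2 fold change ± SE of each of the 7 genes in the 3 comparisons from the edgeR fit, with filled points for adjusted p under 0.05 and open points for the rest. In PBS vs UNT, 4 genes lie below 0 and Sqle and Srebf2 above it; in RGLS4326 vs PBS, the filled points are Hmgcs1 at 0.45 and Idi1 at 0.62.

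RGLS4326-treated kidneys were compared with PBS-treated kidneys to ask what differs in cystic kidney after the drug. No mice here are labelled as given a control oligonucleotide, so blocking of miR-17 and other effects of an oligonucleotide cannot be told apart. *Idi1* rose 1.53-fold and *Hmgcs1* 1.37-fold, and the other 5 genes were not called. Over all genes 33.8% were called, 15.3% higher and 18.5% lower, beside 2 of the 7 genes, both higher. The median log2 fold change of the 7 genes was 0.26, beside 0.00 over all genes. None of the 7 genes had groups without overlap (0 of 7), as 0.0639% of all genes did. This comparison and the preceding one share the PBS mice, so their values are given side by side and opposite signs between them are not independent.

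*Hmgcs1* had a fitted difference of 0.45 on the log2 scale (SE 0.13, adjusted p = 0.012). All 11 RGLS4326 mice were above the PBS median, 2 of them above the highest PBS mouse, and all 11 stayed below the lowest UNT mouse. *Idi1* had a fitted difference of 0.62 on the log2 scale (SE 0.17, adjusted p = 0.0093). It ranged from 4.13 through 6.48 to 9.25 CPM in RGLS4326 mice, with 10 of 11 above the PBS median and 5 above the highest PBS mouse.

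*Insig1*, at 21.4 through 27.0 to 45.3 CPM in RGLS4326 mice, had a fitted difference of 0.35 on the log2 scale (SE 0.15, adjusted p = 0.065). It passed the threshold when 1 of 6 mice was left out (PBS replicate 1, 6 or 8, or RGLS4326 replicate 4, 8 or 10), and its adjusted p over all 34 such fits ranged from 0.031 to 0.15. *Cyp51* was at 63.7 through 79.96 to 103 CPM in RGLS4326 mice (log2 fold change 0.26, SE 0.13, adjusted p = 0.13) and *Sqle* at 53.2 through 75.4 to 86.9 CPM (0.10, SE 0.11, adjusted p = 0.48). *Srebf2*, at 118 through 125 to 150 CPM, had a fitted difference of -0.09 on the log2 scale (SE 0.08, adjusted p = 0.38), and *Fdft1*, at 33.9 through 42.3 to 48.5 CPM, one of -0.15 (SE 0.08, adjusted p = 0.13). These values missed the threshold, which does not show that the groups were alike.

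Neither called gene passed with the percentage of unassigned reads as a covariate, where *Hmgcs1* was at 0.38 (adjusted p = 0.15), *Idi1* at 0.42 (adjusted p = 0.20) and 89 genes in all were called. Within numbering sets of 3 or 4 mice per group, *Hmgcs1* was at 0.52, 0.34 and 0.57 (adjusted p = 0.18, 0.25 and 0.26) and *Idi1* at 0.25, 0.76 and 0.88 (adjusted p = 0.53, 0.0099 and 0.26) in sets 1, 2 and 3. In set 2 the percentage of unassigned reads did not overlap between RGLS4326 (11.3% to 12.0%) and PBS mice (5.49% to 8.995%), whereas it overlapped in sets 1 and 3. Its part in the call of *Idi1* in set 2 was not tested.

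The sign of the treatment difference was the same in all 3 numbering sets for 7 of 7 genes, as differences of mean log2(CPM + 1), and for 60.3% of all tested genes. For *Cyp51* these were 0.36, 0.16 and 0.29, for *Insig1* 0.14, 0.56 and 0.34, and for *Fdft1* -0.22, -0.07 and -0.18, whereas *Srebf2* was near 0 in the third set (-0.15, -0.13 and -0.02). In PBS vs UNT the sign held in all sets for 6 of 7 genes and for 84.1% of all tested genes, *Fdft1* being the exception among the 7 with 0.20, -0.26 and 0.14. A test of whether the difference varied between sets (edgeR interaction term) called 0 of 15644 genes (0%) for the treatment and 0 (0%) for PBS vs UNT, where 1126 and 2858 genes had an unadjusted p under 0.05. Among the 7 genes the lowest adjusted p was 0.80 for the treatment and 0.21, for *Hmgcs1*, in PBS vs UNT.

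**Figure D3:**
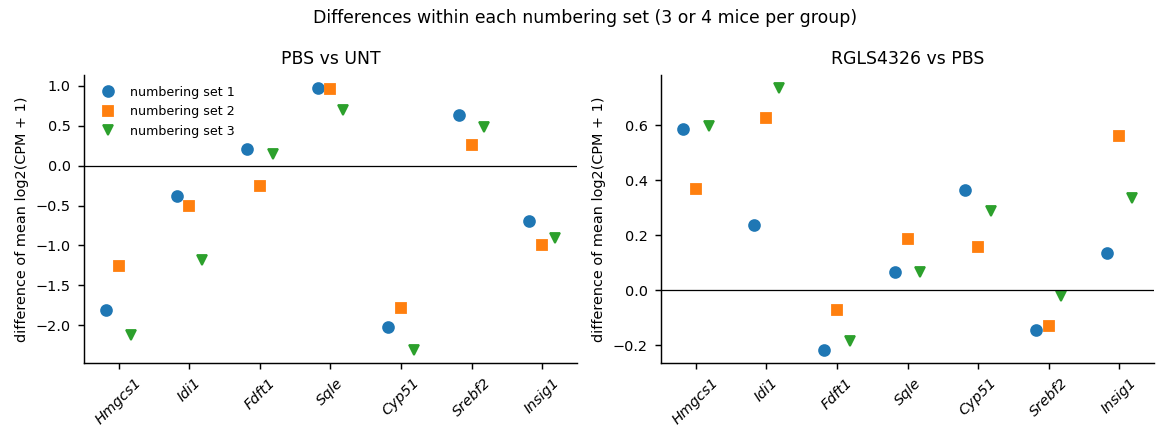
Difference of mean log2(CPM + 1) between groups for each of the 7 genes, computed separately in the 3 numbering sets (3 or 4 mice per group), for PBS vs UNT (left) and RGLS4326 vs PBS (right). On the right, all 3 symbols lie above 0 for Hmgcs1, Idi1, Sqle, Cyp51 and Insig1 and below 0 for Fdft1 and Srebf2; on the left, Fdft1 has symbols on both sides of 0.

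RGLS4326-treated kidneys were also set against UNT, to show how far from the non-cystic level the genes remained. *Hmgcs1* (log2 fold change -1.23, SE 0.13, adjusted p = 1.6e-10), *Cyp51* (-1.82, SE 0.13, adjusted p = 1.4e-14) and *Insig1* (-0.56, SE 0.15, adjusted p = 0.00083) were lower. *Sqle* (0.99, SE 0.11, adjusted p = 2.8e-10) and *Srebf2* (0.36, SE 0.07, adjusted p = 3.9e-05) were higher. *Idi1* (-0.18, SE 0.17, adjusted p = 0.32) and *Fdft1* (-0.13, SE 0.08, adjusted p = 0.13) were not called. Thus 5 of 7 were called, 3 lower and 2 higher, where 77.7% of all genes were called, 40.8% higher and 36.9% lower.

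*Hmgcs1*, *Cyp51* and *Sqle*, 3 of the 7 genes, had no overlap between RGLS4326 and UNT mice, as was so for 36.7% of all genes. For *Idi1*, 6 of 11 RGLS4326 mice were below the UNT median and 5 above it. With total counts only, the call of *Insig1* was lost (-0.25, adjusted p = 0.12) and the calls over all genes moved from 6385 higher and 5772 lower to 9148 higher and 3471 lower. *Fdft1* was called lower when only these groups entered the fit (-0.17, adjusted p = 0.029) and with the percentage of unassigned reads as a covariate (-0.25, adjusted p = 0.0056). In numbering set 2 alone *Fdft1* was called lower (-0.36, adjusted p = 0.017), and *Srebf2* (0.11, adjusted p = 0.30) and *Insig1* (-0.46, adjusted p = 0.11) were not called.

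To compare levels between genes, CPM was divided by the length of the merged exons in kilobases (GENCODE M21, GRCm38). In UNT kidney *Hmgcs1* was at 146 ± 28.5 CPM per kb (SD, n = 12) and *Cyp51* at 62.6 ± 17.5, above *Insig1* at 14.2 ± 3.53, *Srebf2* at 14.1 ± 1.95, *Fdft1* at 10.8 ± 1.31, *Sqle* at 6.86 ± 1.26 and *Idi1* at 2.21 ± 0.51. *Insig1* and *Srebf2* differed by less than their spread. In PBS mice the order was different below *Hmgcs1* (45.4 ± 14.6, n = 11), with *Srebf2* at 19.2 ± 2.45, *Cyp51* at 14.9 ± 3.67, *Sqle* at 12.7 ± 2.6, *Fdft1* at 11.0 ± 1.79, *Insig1* at 7.57 ± 2.03 and *Idi1* at 1.28 ± 0.44. There, *Cyp51* differed from *Sqle*, and *Sqle* from *Fdft1*, by less than their spread. In RGLS4326 mice *Hmgcs1* was at 62.2 ± 7.06 CPM per kb (n = 11), and the order of the 7 genes was as in PBS mice. There, *Srebf2* (18.1 ± 1.55) and *Cyp51* (17.8 ± 2.58), and likewise *Fdft1* (9.89 ± 1.05) and *Insig1* (9.64 ± 2.57), differed by less than their spread.

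Positions on GRCm38 and shared exons were taken from the same annotation. *Hmgcs1* lies at chr13:119690379-119708260 (plus strand), *Idi1* at chr13:8885501-8892451 (plus), *Sqle* at chr15:59315077-59331192 (plus), *Srebf2* at chr15:82147181-82205379 (plus), *Insig1* at chr5:28071363-28078662 (plus), *Cyp51* at chr5:4081145-4104746 (minus) and *Fdft1* at chr14:63145150-63179578 (minus). Because the strand setting of the counting was not stated, genes that share exon bases with a neighbour are uncertain. *Fdft1* shares 774 of its 4227 exon bases with *Ctsb* on the opposite strand, a lysosomal protease gene whose level was 704 ± 28.6 CPM in UNT, 1112 ± 177 in PBS and 875 ± 187 in RGLS4326 mice, and its part in the *Fdft1* values was not tested. *Cyp51* shares 166 of 4415 bases with *Akap9*, which was at 99.5 ± 9.57 CPM in UNT, 115 ± 18.8 in PBS and 122 ± 13.7 in RGLS4326 mice. *Hmgcs1* and *Idi1* share 557 of 4594 and 323 of 3505 bases with noncoding neighbours on the opposite strand.

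The rest of the route was mixed in direction. Of the other 16 enzymes from acetyl-CoA to cholesterol, 10 were lower, 3 higher and 3 not called in PBS vs UNT, with a median log2 fold change of -0.37.

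Among the mevalonate enzymes, *Acat2*, which joins acetyl-CoA units, was lower (-1.06, SE 0.07, adjusted p = 1.9e-15), as was the decarboxylase *Mvd* (-0.91, SE 0.10, adjusted p = 2.1e-10). *Fdps*, which makes farnesyl pyrophosphate, was higher (1.11, SE 0.11, adjusted p = 1.5e-11). Of the 10 enzymes after squalene, 8 were lower and 1 higher, led by the sterol reductase *Tm7sf2* (-0.997, SE 0.10, adjusted p = 2.2e-11), the isomerase *Ebp* (-0.92, SE 0.08, adjusted p = 2.2e-13) and the keto-reductase *Hsd17b7* (-0.66, SE 0.11, adjusted p = 2.7e-06). With RGLS4326, of these 16 enzymes *Lbr* was higher (0.20, SE 0.08, adjusted p = 0.048), *Fdps* was lower (-0.32, SE 0.11, adjusted p = 0.025) and 14 were not called. The call of *Lbr* was lost in 20 of 34 fits without 1 mouse, and that of *Fdps* without PBS replicate 2 or 9, with an adjusted p of up to 0.098 and 0.061.

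**Figure D4:**
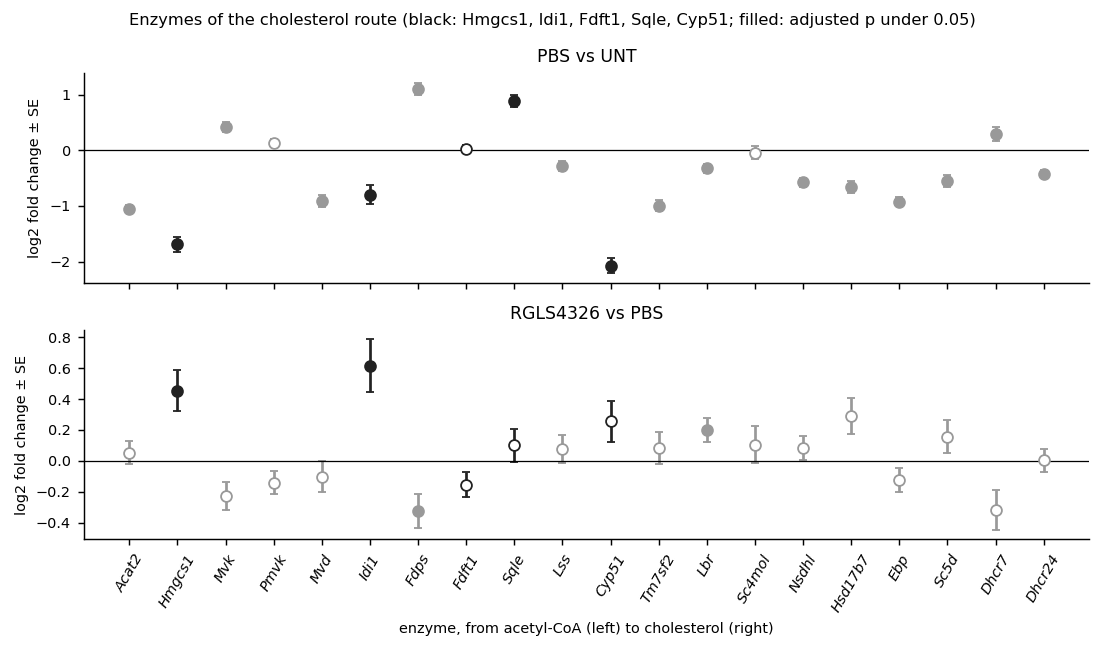
Log2 fold change ± SE of enzymes ordered from acetyl-CoA to cholesterol, for PBS vs UNT (top) and RGLS4326 vs PBS (bottom); black points are Hmgcs1, Idi1, Fdft1, Sqle and Cyp51, grey points other enzymes of the route, and filled points have an adjusted p under 0.05. In the top panel Fdps and Sqle stand highest and Cyp51 and Hmgcs1 lowest; in the bottom panel the filled points are Hmgcs1, Idi1, Fdps and Lbr.

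Sterol sensing genes were split in PBS vs UNT, with 3 of 10 higher, 5 lower and 2 not called. *Erlin1* was lower (-0.94, SE 0.09, adjusted p = 2.6e-12), and the protease gene *Mbtps1*, whose product cuts SREBPs, was higher (0.45, SE 0.05, adjusted p = 8.0e-11). With RGLS4326, *Rnf139* was higher (0.25, SE 0.06, adjusted p = 0.0054), and *Srebf1*, the gene of the fatty acid regulator SREBP-1 (-0.33, SE 0.12, adjusted p = 0.031), and the escort *Scap* (-0.18, SE 0.06, adjusted p = 0.028) were lower. Leaving out 1 mouse raised the adjusted p of *Srebf1* to at most 0.067 (call lost in 6 of 34 fits) and of *Scap* to at most 0.058 (5 of 34).

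Of 12 uptake and trafficking genes, 7 were higher, 3 lower and 2 not called in PBS vs UNT. The lipoprotein receptor gene *Scarb1* (1.27, SE 0.15) and the lysosomal exporters *Npc2* (0.90, SE 0.08) and *Npc1* (0.84, SE 0.07) were among those higher. With RGLS4326, 2 were higher, 3 lower and 7 not called. *Vldlr* (0.38, SE 0.09, adjusted p = 0.0033) and the sterol carrier gene *Stard4* (0.38, SE 0.12, adjusted p = 0.016) were higher. *Scarb1* was lower (-0.45, SE 0.15, adjusted p = 0.023, and at most 0.081 without 1 mouse). Its call was lost without PBS replicate 2 (-0.35) or 11 (-0.27). Also lower were *Npc2* (-0.31, SE 0.09, adjusted p = 0.0090) and *Stard3* (-0.21, SE 0.06, adjusted p = 0.010), the last a sterol carrier gene named after its values were seen to complete the count.

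All 11 genes of efflux, storage and oxysterol handling were called in PBS vs UNT, 7 higher and 4 lower. The oxysterol enzymes *Ch25h* (2.45, SE 0.13) and *Cyp7b1* (1.94, SE 0.09) and the apolipoprotein gene *Apoe* (1.56, SE 0.15) were the most raised. With RGLS4326 3 were lower, *Apoe* (-0.47, SE 0.16, adjusted p = 0.021), the exporter *Abcg1* (-0.45, SE 0.09, adjusted p = 0.0020) and the oxysterol receptor gene *Nr1h2* (-0.25, SE 0.07, adjusted p = 0.0091), and 0 were higher.

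Among 9 genes that use isoprenoids for other products, 5 were lower and 2 higher in PBS vs UNT, with *Nus1*, for dolichol synthesis, at -1.70 (SE 0.13), *Pdss1*, for the ubiquinone tail, at -1.58 (SE 0.10), and the farnesyltransferase subunit *Fntb* at 0.95 (SE 0.08). With RGLS4326 4 were higher and 2 lower, the former with *Nus1* (0.45, SE 0.13, adjusted p = 0.011), *Pggt1b* (0.38, SE 0.12, adjusted p = 0.017) and *Pdss1* (0.26, SE 0.10, adjusted p = 0.047, lost in 18 of 34 fits without 1 mouse, at most 0.096). All 10 fatty acid genes linked to SREBP-1 were called in PBS vs UNT, 8 lower and 2 higher, led by *Scd1* (-2.04, SE 0.30), *Acss2* (-1.95, SE 0.12) and *Me1* (-1.93, SE 0.11). With RGLS4326, *Acss2* was higher (0.35, SE 0.12, adjusted p = 0.025, lost without PBS replicate 4 or 11, at most 0.051), and *Scd2* (-0.51, SE 0.15, adjusted p = 0.012) and *Fads1* (-0.24, SE 0.07, adjusted p = 0.014) were lower.

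Over these 68 other pathway genes, 24 were higher, 35 lower and 9 not called in PBS vs UNT, 9, 13 and 46 in RGLS4326 vs PBS, and 19, 32 and 17 in RGLS4326 vs UNT. These shares stand near the 82.1%, 33.8% and 77.7% of all genes called in the same comparisons, so nothing particular to the pathway is read from them. Of these genes, 19 that the naming rule picked were called in RGLS4326 vs PBS, and 0 of the 19 were called with the percentage of unassigned reads as a covariate. The log2 fold changes of these 19 kept their sign and were 0.266 to 1.123 times those without the covariate (median 0.65). *Acss2*, for example, was at 0.39 with it and 0.35 without, *Rnf139* at 0.23 and 0.25, and *Fntb* at -0.06 and -0.23. The paralog *Idi2* had 6 counts over 5 libraries and was not tested.

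Markers of kidney cell types also differed between groups. The counts called below stand beside the shares over all genes. These were 82.1% in PBS vs UNT (43.1% higher, 39% lower), 33.8% in RGLS4326 vs PBS (15.3% higher, 18.5% lower) and 77.7% in RGLS4326 vs UNT. Summed over 8 proximal tubule markers (*Lrp2*, *Cubn*, *Slc34a1* and others), the level was 12343 to 16709 CPM in UNT, 1186 to 4085 CPM in PBS and 2491 to 4398 CPM in RGLS4326 mice, with 8 of 8 lower in PBS vs UNT and 5 of 8 higher in RGLS4326 vs PBS. Summed over 8 macrophage markers, it was 115 to 190 CPM in UNT, 976 to 3025 CPM in PBS and 920 to 1914 CPM in RGLS4326 mice, with 8 of 8 higher in PBS vs UNT and 4 of 8 lower in RGLS4326 vs PBS. For 8 fibroblast markers the ranges were 527 to 1231, 2567 to 5457 and 3455 to 5086 CPM, with 8 of 8 higher in PBS vs UNT and 1 of 8 higher in RGLS4326 vs PBS. For 6 collecting duct markers the ranges were 449 to 742, 777 to 2200 and 463 to 1780 CPM, and the list was split. In PBS vs UNT 5 of these 6 were higher, from *Aqp3* (log2 fold change 0.47) to *Krt18* (3.41), and *Atp6v1g3*, a proton pump subunit gene of intercalated cells, was lower (-0.96). In RGLS4326 vs PBS 3 of 6 were lower and 3 not called, and in RGLS4326 vs UNT 3 were higher, 2 not called and *Atp6v1g3* lower (-1.15). For 5 podocyte markers the ranges were 586 to 728, 354 to 459 and 420 to 499 CPM, with 4 lower and 1 higher in PBS vs UNT and 4 of 5 higher in RGLS4326 vs PBS. For 6 endothelial markers they were 491 to 617, 376 to 521 and 473 to 588 CPM, with 4 lower and 2 higher in PBS vs UNT and 4 of 6 higher in RGLS4326 vs PBS. The 8 lymphocyte markers summed to 12.8 to 20.7, 39.1 to 84.5 and 46.0 to 85.9 CPM, with 5 of 8 higher in PBS vs UNT and 4 of 8 lower in RGLS4326 vs PBS, although the summed level was not lower there (median 65.6 CPM beside 63.6 CPM in PBS). The 8 proliferation genes summed to 102 to 286, 233 to 352 and 248 to 397 CPM, with 8 of 8 higher in PBS vs UNT and 0 of 8 called in RGLS4326 vs PBS (edgeR, 2 of 8 at an unadjusted p under 0.05). No marker of these 8 lists was at 0 throughout a group. In whole kidney, fewer cells of a type and less RNA per cell cannot be told apart, and the part of cell type shares in the 7 genes was not tested by these values.

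Within a group, where the mice share genotype and treatment, the 7 genes were compared in pairs on log2(CPM + 1), with two-sided permutation tests of 100000 resamples adjusted over the 63 pairs of genes and groups. In PBS mice the median Pearson r over the 21 pairs was 0.65 and 19 were above 0, whereas the medians were -0.03 in UNT (10 above 0) and 0.19 in RGLS4326 mice (13 above 0). The r of pairs of other genes within a group was not computed, so whether these values are particular to the 7 genes was not tested. In PBS, 5 pairs passed. *Cyp51* and *Insig1* had r = 0.90 (rho = 0.82, n = 11 mice, permutation p = 0.00059, adjusted 0.017), *Sqle* and *Insig1* r = 0.85 (rho = 0.93, permutation p = 0.00084, adjusted 0.017), *Sqle* and *Cyp51* r = 0.85 (rho = 0.83, permutation p = 0.00087, adjusted 0.017), *Cyp51* and *Idi1* r = 0.82 (rho = 0.84, permutation p = 0.0011, adjusted 0.017) and *Hmgcs1* and *Cyp51* r = 0.84 (rho = 0.84, permutation p = 0.0038, adjusted 0.048).

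*Sqle* thus ran with *Cyp51* and *Insig1* among PBS mice, although its group mean lay on the other side of UNT. Without the 2 mice farthest from the median of the first gene, r for these pairs was 0.92, 0.79, 0.81, 0.80 and 0.78, in the same order, and the first alone passed (adjusted permutation p = 0.011). Centred on the numbering sets, r was 0.90, 0.83, 0.82, 0.80 and 0.85, with adjusted permutation p from 0.067 to 0.15 when mice were permuted within sets. In UNT and RGLS4326 mice 0 pairs passed by Pearson r, and the lowest r were -0.70 for *Hmgcs1* and *Srebf2* in UNT (rho = -0.58, adjusted permutation p = 0.083) and -0.72 for *Srebf2* and *Insig1* in RGLS4326 mice (rho = -0.75, adjusted permutation p = 0.085). Whether r differs between groups was not tested.

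**Figure D5:**
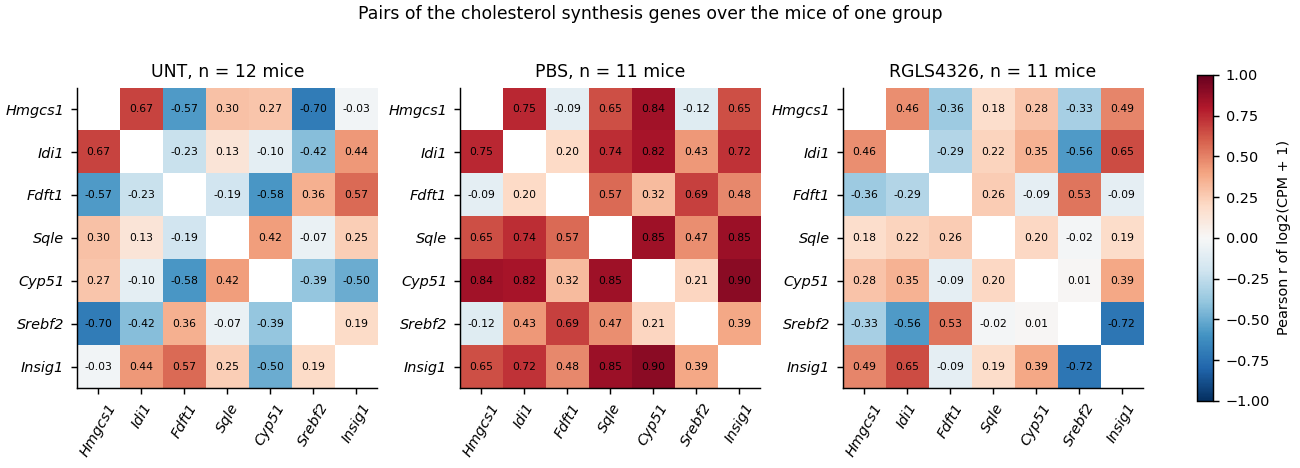
Pearson r of log2(CPM + 1) for each pair of the 7 genes over the mice of 1 group, on a colour scale from -1 (blue) to 1 (red). The PBS panel is mostly red, with r of 0.82 to 0.90 among the 5 pairs that passed, while the UNT and RGLS4326 panels hold both colours.

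In PBS mice *Hmgcs1* also followed the summed proximal tubule markers (r = 0.86, rho = 0.79, n = 11, permutation p = 0.0016, adjusted over 21 relations 0.019), with r = 0.94 without the 2 mice farthest from the marker median and r = 0.93 within numbering sets (adjusted permutation p = 0.0072 and 0.043). By rho its adjusted p was 0.061. In UNT mice *Fdft1* ran against these markers (r = -0.79, rho = -0.82, n = 12, permutation p = 0.0018, adjusted 0.019), with r = -0.89 without 2 mice (adjusted permutation p = 0.0072) and -0.62 within sets (adjusted permutation p = 0.23). The other 19 of these relations, chosen after the data were seen, did not pass by Pearson r, *Cyp51* in PBS being at r = 0.59 (rho = 0.50, adjusted permutation p = 0.25) and *Sqle* at r = 0.33 (rho = 0.24, adjusted permutation p = 0.55).

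Across all 34 mice, after centring log2(CPM + 1) on each group, the genes most like the 7 among 15637 others by their mean r were *Tfrc* (0.45), *Stard4* (0.42), *Utp14b* (0.42), *Lss* (0.41), *Hsd17b7* (0.41) and *Wnt5a* (0.40). *Lss*, which makes lanosterol, and *Hsd17b7* are enzymes of the same route. The likeness was uneven over the 7 genes. *Hsd17b7* had an r of 0.75 with *Idi1* and 0.71 with *Hmgcs1* but -0.01 with *Srebf2* and -0.03 with *Fdft1*, and *Stard4* one of 0.77 with *Idi1* and 0.07 with *Fdft1*. The transferrin receptor gene *Tfrc* was lower in PBS vs UNT (-1.23, SE 0.16, adjusted p = 5.3e-09) and higher with RGLS4326 (0.39, SE 0.16, adjusted p = 0.049, lost in 25 of 34 fits without 1 mouse, at most 0.096). These points share the library and its depth, so the values are a description.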

How the data were processed

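Kidney RNA of 34 mice was prepared by the authors with a stranded mRNA kit, sequenced as paired ends, trimmed, mapped with STAR to GRCm38 (mm10) and counted in genes with HTSeq. The submitters' processing notes name FastQC 0.11.2, Trim Galore, SAMtools 1.1, HTSeq 0.6.1 and Picard 1.119. Deposited were untransformed counts of reads by gene symbol, in a separate table for each mouse. Which gene annotation and strand setting were used is not given in the sources used here. The total rows of the counter (reads in no gene, ambiguous, not unique) were kept out of library sizes and tests; the share of ambiguous reads was 0.32% to 0.49%. No libraries were identical (0 pairs). Where nothing says that mice came from separate litters, p-values measure the spread between these mice.

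Counts were filtered with filterByExpr, scaled by TMM and fitted with edgeR 4.0.16 (R 4.3.3) in a single model of 3 groups without covariates. On simulated data, 95 of 100 genes (95%) changed by 1 on the log2 scale and 64 of 98 (65.3%) changed by 0.5 were recovered in RGLS4326 vs PBS, with 6 false calls among 165 over 15387 genes. The simulated counts held no effect of numbering set or unassigned reads, so the share of false calls in the measured comparison is not known from them. Other scalings and filters, DESeq2 1.42.0, covariates and omission of single mice were alternatives. A pseudocount of 1 was used for log2(CPM + 1). Python 3.11.15 with numpy 2.4.6, scipy 1.17.1 and matplotlib 3.10.9 was used for correlations and figures, and GENCODE M21 for positions, lengths and 3′UTRs.

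The 7 genes and all gene lists were chosen with earlier results of these data known. Of each pathway list, the called genes with the 3 largest changes in PBS vs UNT and in RGLS4326 vs PBS were named, besides *Idi2*, *Pkd2* and the 6 genes most like the 7. Single values of some genes of these lists are not reported here. *Msmo1* and *Adgre1* are listed in the files as *Sc4mol* and *Emr1*. Replicate numbers in the titles only name mice.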

Additional observations from a re-analysis of the deposited data

How the results depend on the processing

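No called difference among the 7 genes changed sign under any alternative run, and *Fdft1*, not called in PBS vs UNT, was called lower (-0.29) in numbering set 2 alone. Over all genes named by the rule, 492, 410 and 476 of 517 values under the alternatives, and 1597, 1498 and 1585 of 1598 without 1 mouse, kept their side of the threshold and, where called, their direction in PBS vs UNT, RGLS4326 vs PBS and RGLS4326 vs UNT. Values called in neither fit were counted as kept even where their sign changed. RGLS4326 vs PBS was the least stable comparison: from 5280 genes, 2 of them among the 7, the calls went to 89 and 0 with the percentage of unassigned reads as a covariate (3199 genes at an unadjusted p under 0.05), 54 and 0 in numbering set 1 alone (3421), 0 and 0 in set 3 alone (edgeR, 2826), and 4065 and 1 in set 2 alone (6361). Set 2 was the only set in which RGLS4326 and PBS mice did not overlap in the percentage of unassigned reads, and the part of this was not tested. Without 1 mouse, 4023 to 6209 genes and 2 to 3 of the 7 were called in RGLS4326 vs PBS, 12712 to 12916 and 6 in PBS vs UNT, and 12008 to 12379 and 5 in RGLS4326 vs UNT. Other genes are listed as changing direction only where the main fit or the alternative called them. With total counts only these were *Rnf139* (0.24), *Lss* (0.010) and *Wnt5a* (0.25) in PBS vs UNT, and *Lbr* (0.18) and *Lss* (0.10) in RGLS4326 vs UNT. *Scap* turned to -0.089 (PBS vs UNT) and -0.14 (RGLS4326 vs UNT) with the percentage of unassigned reads as a covariate and to -0.24 (RGLS4326 vs UNT) in set 2 alone, and *Pggt1b* to -0.016 (RGLS4326 vs UNT) in set 3 alone. Except for total counts only, the cause was not tested. In RGLS4326 vs PBS 0 named genes changed direction with a call. Uncalled values did change sign there, for example *Tm7sf2* (-0.25 to 0.38 over the alternatives) and *Lss* (-0.21 to 0.25). By rho instead of r, 8 pairs of the 7 genes passed in PBS and 1 in UNT mice, without the 2 farthest mice 1 passed in PBS, and centred on sets 0 passed in PBS. With the longest transcript as length, *Hmgcs1* was at 194, *Srebf2* at 19.9, *Insig1* at 16.3, *Fdft1* at 12.4 and *Sqle* at 8.52 CPM per kb in UNT, so *Srebf2* passed *Insig1* there, and the order in PBS and RGLS4326 mice was as with merged exons. Replicate numbers did not pair the mice: same-numbered mice had deviations correlated above 0.1 in 2, 5 and 3 of 11 pairs, and a replicate block called 12781, 5098 and 12162 genes in PBS vs UNT, RGLS4326 vs PBS and RGLS4326 vs UNT, with *Insig1* besides *Hmgcs1* and *Idi1* called among the 7 genes in RGLS4326 vs PBS.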
